A study of Rattus norvegicus with 7 samples.

Results

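Lyz2 (ENSRNOG00000005825), Cx3cr1 (ENSRNOG00000018509), Lgals3 (ENSRNOG00000010645) and Chi3l1 (ENSRNOG00000053272) are genes expressed by macrophages, the resident phagocytes of the lung. They were chosen by name through their Ensembl identifiers, with earlier results of these data known. They make up 4 of the 23918 genes counted in fetal rat lung. All 4 passed the filter on low counts, which kept 15627 genes in the 6 lungs of the count sheet that accompanies the study and 15750 genes in all 7 lungs. The question addressed here was which of the 4 genes went together from lung to lung after intra-amniotic (IA) LPS, and which parted ways in the 7th lung.

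Pregnant Sprague-Dawley rats received an ultrasound-guided injection into the amniotic cavity on embryonic day 18, and RNA was measured in whole fetal lung 24 h later. The 3 control lungs came from fetuses exposed to PBS and the 4 IA LPS lungs from fetuses exposed to 10 µg of LPS of E. coli O55:B5, a component of the bacterial outer membrane, with the stage of all fetuses labelled E18. The dose is that of the series description, because the sample labels write it as an incomplete number. PolyA RNA was sequenced, and reads were assigned to genes as estimated counts that summed to between 25031827 and 28336525 per lung. Levels are given as CPM, counts scaled to library size with TMM normalization over the 7 lungs, and the floor of 3 counts, which covers counting error alone, lay at 0.105 to 0.124 CPM. No litter or batch is labelled, so p-values measure the spread between these samples, which may be partly technical.

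IA LPS replicate 4 stood apart from the other IA LPS lungs over all genes. The chi-square statistic of the counts per degree of freedom, which is near 1 for sampling noise alone, was 100.5 to 130.2 between IA LPS 4 and the other 3 IA LPS lungs, against 22.4 to 35.6 among IA LPS 1, 2 and 3 and 16.7 to 27.99 among the controls. The count sheet of the study lists the 3 controls and IA LPS 1, 2 and 3 and leaves out IA LPS 4, for a reason not given in the sources used here. The fold changes of the 4 genes are therefore given over the 6 lungs and over all 7, and IA LPS 4 is compared with the other IA LPS lungs in a separate fit. These fits share lungs and are not independent of each other.

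Lung macrophages arise from yolk sac and fetal liver precursors that seed the lung before birth, and they mature into alveolar macrophages as the airspaces fill with air. LPS binds Toll-like receptor 4 on such cells and starts a program of cytokine and chemokine expression. The 4 genes differ in their roles, since Cx3cr1 encodes a receptor, Lyz2 an antibacterial enzyme, and Lgals3 and Chi3l1 encode proteins that bind sugar chains.

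Cx3cr1 is a chemokine receptor carried by monocytes and many tissue macrophages, and its ligand is anchored in the membranes of other cells. It was at 3.66, 5.21 and 4.01 CPM in controls 1 to 3, at 6.32, 7.49 and 7.46 CPM in IA LPS 1 to 3, and at 2.71 CPM in IA LPS 4. The first 3 IA LPS lungs all lay above the highest control, control 2, whereas IA LPS 4 was the lowest of all 7 lungs. Over the 6 lungs Cx3cr1 was induced from 4.29 ± 0.813 to 7.09 ± 0.666 CPM (mean ± SD of 3 lungs each), with a log2 difference between groups of 0.72 (SE 0.175, edgeR adjusted p = 0.0564). Over all 7 lungs the groups overlapped and the log2 fold change was 0.48 (SE 0.339, edgeR adjusted p = 0.521), which was not past the thresholds. Here and below, genes were called when the fold reached 1.5 with an edgeR p under 0.05 that, adjusted by Benjamini-Hochberg over all genes tested, stayed under 0.1. In whole tissue, fewer cells that express a gene and less of its RNA per cell cannot be told apart.

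Lyz2 encodes lysozyme M, which cleaves the cell wall of bacteria and is made by macrophages, neutrophils and type 2 epithelial cells. It was at 137, 157 and 209.6 CPM in controls 1 to 3, at 292, 244 and 234 CPM in IA LPS 1 to 3, and at 148 CPM in IA LPS 4. The order differed from that of Cx3cr1, with IA LPS 1 the highest lung and control 3 the highest control, but IA LPS 4 was again below the other IA LPS lungs and lay among the controls, between control 1 and control 2. Lyz2 was induced from 168 ± 37.5 to 256 ± 31.0 CPM in the 6 lungs (mean ± SD of 3 lungs each), with a log2 difference between groups of 0.61 (SE 0.154, edgeR adjusted p = 0.0618). With IA LPS 4 the mean of the 4 IA LPS lungs was 229 ± 59.9 CPM (SD, n = 4), and the log2 fold change of 0.45 (SE 0.232, edgeR adjusted p = 0.390) was not past the thresholds.

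Lgals3 encodes galectin-3, a lectin that binds galactose-containing sugar chains and is abundant in activated macrophages and also present in epithelium. It was at 17.0, 22.6 and 26.9 CPM in controls 1 to 3, at 44.8, 41.4 and 36.8 CPM in IA LPS 1 to 3, and at 42.7 CPM in IA LPS 4. All 4 IA LPS lungs lay above all 3 controls, and IA LPS 4 was second only to IA LPS 1. Lgals3 was induced from 22.2 ± 4.95 to 41.0 ± 3.98 CPM in the 6 lungs (mean ± SD of 3 lungs each), with a log2 difference between groups of 0.88 (SE 0.155, edgeR adjusted p = 0.0215). Over all 7 lungs it was past the thresholds as well, with a log2 fold change of 0.90 (SE 0.158, edgeR adjusted p = 0.0489).

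Chi3l1 encodes a secreted protein of the chitinase family that binds chitin without cleaving it and is released by macrophages, neutrophils and epithelial cells. It was at 3.58, 2.66 and 3.72 CPM in controls 1 to 3, at 7.82, 6.40 and 5.14 CPM in IA LPS 1 to 3, and at 6.90 CPM in IA LPS 4. The groups did not overlap, and the IA LPS lungs stood in the same order as for Lgals3, with IA LPS 1 highest, IA LPS 4 next and IA LPS 3 lowest. Chi3l1 was induced from 3.32 ± 0.577 to 6.45 ± 1.34 CPM in the 6 lungs (mean ± SD of 3 lungs each), with a log2 difference between groups of 0.96 (SE 0.211, edgeR adjusted p = 0.0426). The call held over all 7 lungs, with a log2 fold change of 0.98 (SE 0.206, edgeR adjusted p = 0.0766).

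**Figure D1:**
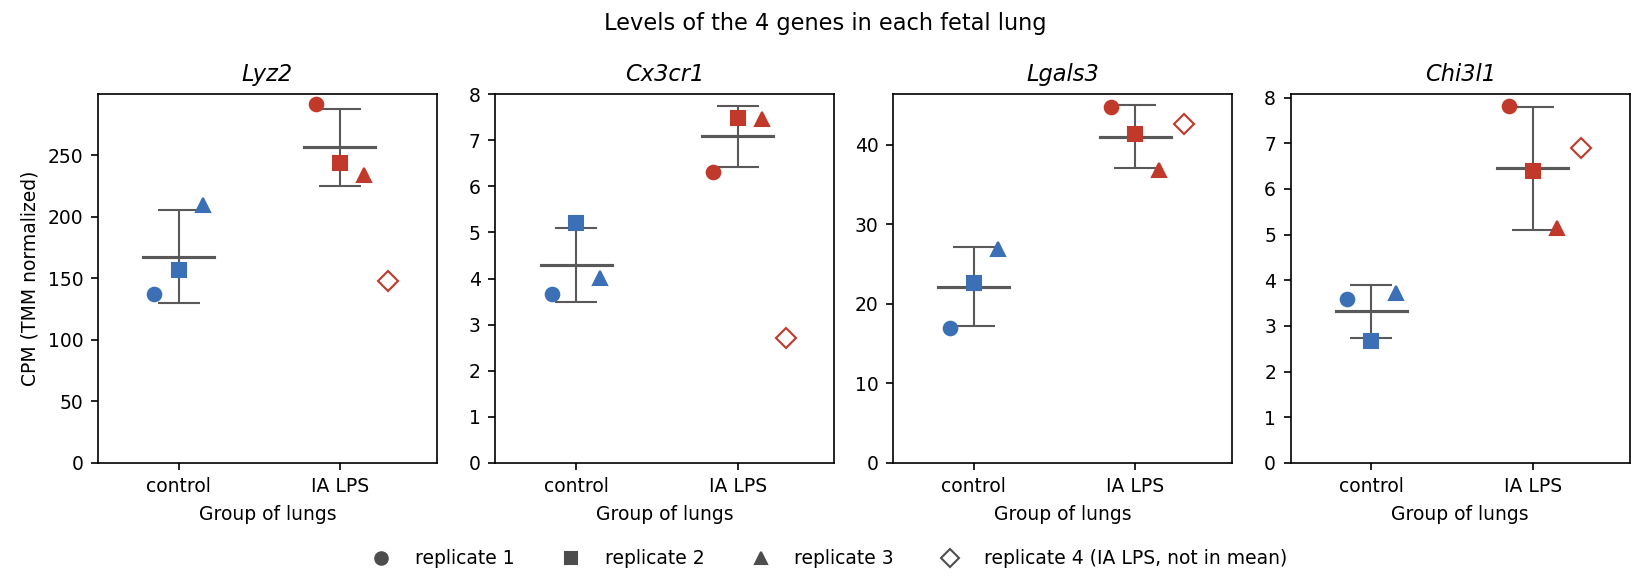
Levels of Lyz2, Cx3cr1, Lgals3 and Chi3l1 in CPM (vertical axes, linear, starting at 0) in each of the 3 control and 4 IA LPS lungs (horizontal axes). Symbols mark the replicates, horizontal lines the means of replicates 1 to 3 and error bars their SD (n = 3), and the open diamond is IA LPS 4, which sits at 148 CPM for Lyz2 and 2.71 CPM for Cx3cr1, at or below the controls, and at 42.7 CPM for Lgals3 and 6.90 CPM for Chi3l1, above all controls.

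All 4 genes were thus called induced over the 6 lungs, where 2.17% of the 15627 genes tested were called induced and 1.13% suppressed. The study names all 4 among the genes induced by LPS in fetal lung, and they were chosen with earlier results of these data known. Their calls therefore follow in part from the choice, and the shares of all genes are background and not a test. Over all 7 lungs 2 of the 4, Lgals3 and Chi3l1, were called induced, against 1.40% of 15750 genes. Every IA LPS lung lay above every control for all 4 genes over the 6 lungs and for Lgals3 and Chi3l1 over the 7, an arrangement held by 14.8% of the genes tested over the 6 lungs and 10.6% of those tested over the 7. The median log2 fold change of all genes tested was 0.00 over the 6 lungs and 0.01 over the 7. Each of the 6 lungs was left out in turn, and of the 4 genes Lgals3 alone kept its call every time, with log2 fold changes from 0.73 to 1.05. Over the 7 lungs its call was lost without control 1 (0.74), control 2 (0.92), control 3 (1.06) or IA LPS 2 (0.90). That of Chi3l1 was lost without control 1 (1.04), control 2 (0.85), control 3 (1.07), IA LPS 1 (0.89) or IA LPS 2 (1.00). Without control 1, 2 or 3 or IA LPS 2, at most 2 of all genes tested were induced over the lungs left. The calls lost in those fits were therefore not particular to Lgals3 and Chi3l1. In the 6 lungs, Lyz2 was no longer past the thresholds without control 1 (0.48), control 2 (0.57), IA LPS 1 (0.50), IA LPS 2 (0.65) or IA LPS 3 (0.67). Cx3cr1 lost its call without control 1 (0.62), control 3 (0.67), IA LPS 2 (0.68) or IA LPS 3 (0.68), and Chi3l1 without control 1 (1.01), control 2 (0.82), IA LPS 1 (0.79) or IA LPS 2 (0.96).

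In IA LPS 4, Cx3cr1 and Lyz2 lay below each of the other IA LPS lungs, and Lgals3 and Chi3l1 lay within their range. Against IA LPS 1 to 3, Cx3cr1 in IA LPS 4 had a log2 difference of -1.39, the farthest from 0 of the 4 genes. Lyz2 had a log2 difference of -0.79. The log2 differences of Lgals3 and Chi3l1 were 0.06 and 0.10. Over all 15750 genes tested the median log2 difference was -0.02. A median near 0 does not give the spread of these differences, and IA LPS 4 stood apart over all genes, as described above. Differences of this size are therefore not shown to be particular to Cx3cr1 and Lyz2. This fit compares 1 lung, not a condition. The spread of such a lung was not measured, so no gene is called from it.

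Against the controls, Cx3cr1 in IA LPS 4 had a log2 difference of -0.66, and Lyz2 had one of -0.18. Lgals3 and Chi3l1 in IA LPS 4 had log2 differences from the controls of 0.94 and 1.05. The spread of a lung such as IA LPS 4 was not measured, so none of these genes is called from this fit. The shares of all genes past the thresholds, given next, describe the same fit and have the same limit. Of all 15750 genes tested, 16.1% were called lower and 9.39% higher in IA LPS 4 than in the controls. Among the 339 genes induced over the 6 lungs, IA LPS 4 lay above every control in 308 (90.9%), within the control range in 25 (7.37%) and below every control in 6 (1.77%). These genes were selected with the same controls, which favours a high share, and IA LPS 4 lay above every control in 39.7% of all 15627 genes tested. Lgals3 and Chi3l1 belonged to the 308, Lyz2 to the 25 and Cx3cr1 to the 6. Cx3cr1 was the only gene with a symbol among those 6. The other genes with a symbol placed with Lyz2 were Ca12, Ccdc162, Cxcl13, Dlec1, Fcnb, Parvg, Pou2f2 and Tm4sf5.

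The ratio between a pair of members within a lung does not depend on the scaling of that lung. The log2 ratio of Lyz2 to Lgals3, set to a mean of 0 in the controls, was between -0.13 and 0.09 in the controls, -0.22, -0.36 and -0.26 in IA LPS 1 to 3 and -1.13 in IA LPS 4. IA LPS 4 thus lay far below the other 6 lungs, which spanned less than the gap to it. The same ratio of Lyz2 to Chi3l1 was -0.39, 0.23 and 0.16 in the controls, -0.43, -0.40 and -0.14 in IA LPS 1 to 3 and -1.23 in IA LPS 4. For Cx3cr1 to Lgals3 it was between -0.39 and 0.24 in the controls, -0.47, -0.11 and 0.05 in IA LPS 1 to 3 and -1.62 in IA LPS 4. For Cx3cr1 to Chi3l1 it reached -1.72 in IA LPS 4, against -0.68 to 0.17 in IA LPS 1 to 3 and -0.34 to 0.60 in the controls. In each of these 4 pairs, which set Lyz2 or Cx3cr1 against Lgals3 or Chi3l1, IA LPS 4 was the lowest lung.

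The remaining pairs did not separate IA LPS 4 in that way. The log2 ratio of Lgals3 to Chi3l1 was -0.10 in IA LPS 4, inside the range of -0.21 to 0.11 of IA LPS 1 to 3 and that of -0.48 to 0.36 of the controls. The log2 ratio of Lyz2 to Cx3cr1 was 0.49 in IA LPS 4, the highest of the 7 lungs but close to the 0.43 of control 3, and it ranged from -0.31 to 0.25 in IA LPS 1 to 3. Lgals3 and Chi3l1 therefore held their ratio in IA LPS 4, and Cx3cr1 was lower there than Lyz2 was, relative to their levels in the controls. These ratios are a description and carry no test.

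**Figure D2:**
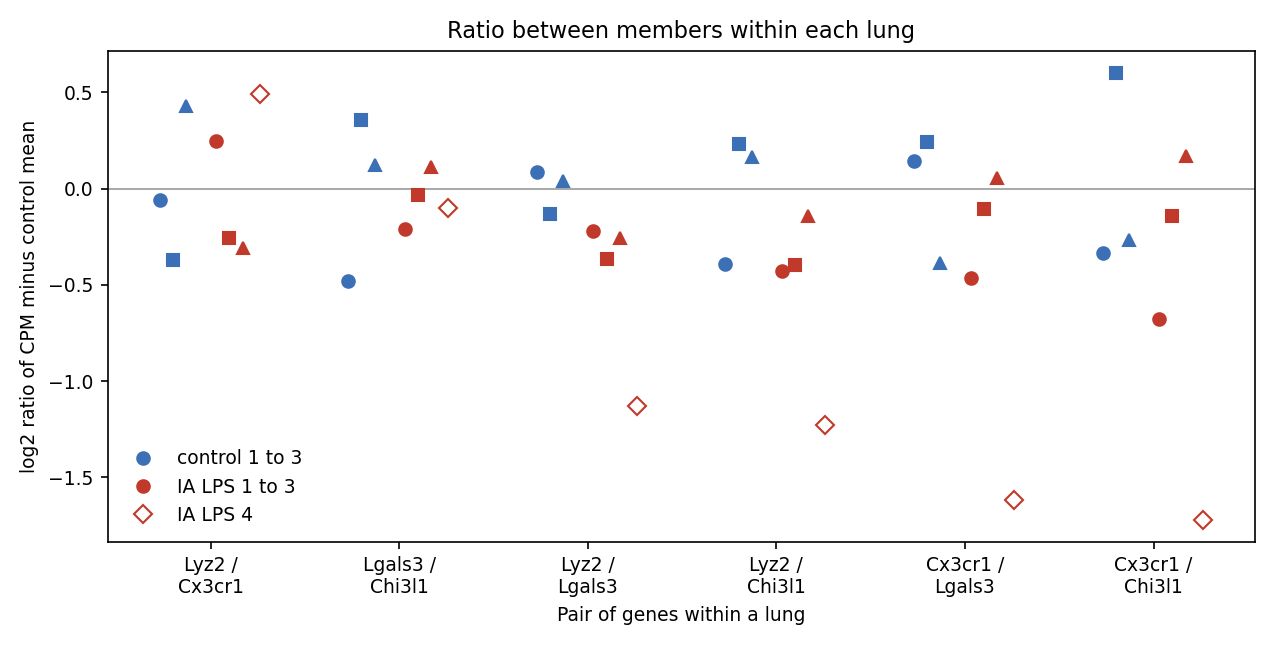
Log2 ratio of CPM between each pair of the 4 genes within a lung, minus the mean of that log2 ratio in the controls (vertical axis), for the 6 pairs (horizontal axis). Circles, squares and triangles are replicates 1, 2 and 3 of the controls (blue) and IA LPS lungs (red) and the open diamond is IA LPS 4, which lies at -1.13, -1.23, -1.62 and -1.72 in the 4 pairs that set Lyz2 or Cx3cr1 against Lgals3 or Chi3l1.

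Whether the genes went together from lung to lung beyond the difference between the groups was examined with the deviation of each log2 CPM from its group mean, over 7 lungs and 6 pairs of genes. Cx3cr1 deviated by -1.02 in IA LPS 4, against 0.18, 0.42 and 0.42 in IA LPS 1 to 3, and Lyz2 by -0.59, against 0.39, 0.13 and 0.07. Lgals3 deviated by 0.05 and Chi3l1 by 0.09 in IA LPS 4. The largest correlation of deviations was that of Lyz2 and Cx3cr1, with r = 0.720 (two-sided exact permutation p = 0.118, adjusted p = 0.708) and Spearman's rho = 0.464 (exact permutation p = 0.354, adjusted p = 0.517). It rested on IA LPS 4 and control 1, and over the 5 lungs without them r was -0.660, and -0.992 once deviations were taken again. The lungs left out of a pair were those farthest from the median deviation of its first gene, taken in the order Lyz2, Cx3cr1, Lgals3, Chi3l1. Deviations were then taken again from the group means of the lungs that remained, a step chosen after the data were seen. Values of r over so few lungs are a description. Before that step r was 0.612 for Lyz2 and Lgals3, 0.937 for Lyz2 and Chi3l1 and 0.710 for Lgals3 and Chi3l1. It was -0.929 for Cx3cr1 and Lgals3 and -0.661 for Cx3cr1 and Chi3l1. For Lgals3 and Chi3l1 control 2 was the only control that remained, so after that step it lay at its own group mean. The exact tests permuted lungs within groups in 144 arrangements, the smallest p they can give is 0.00694, and adjustment was over the 6 pairs.

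For Lyz2 and Lgals3 r was 0.465 (exact permutation p = 0.319, adjusted p = 0.806), with rho = 0.571 (exact permutation p = 0.222, adjusted p = 0.517) and r = 0.937 without IA LPS 4 and control 1. For Lgals3 and Chi3l1 r was 0.287 (exact permutation p = 0.632, adjusted p = 0.883), with rho = 0.50 (exact permutation p = 0.292, adjusted p = 0.517) and r = 0.996 without controls 1 and 3. Cx3cr1 had negative correlations with both lectin genes. They were r = -0.444 with Chi3l1 (exact permutation p = 0.403, adjusted p = 0.806), with rho = -0.536 (exact permutation p = 0.292, adjusted p = 0.517) and r = -0.891 without IA LPS 4 and control 1. With Lgals3 it was r = -0.0453 (exact permutation p = 0.917, adjusted p = 0.917), with rho = -0.107 (exact permutation p = 0.833, adjusted p = 0.833) and r = -0.884 without the same lungs. For Lyz2 and Chi3l1 r was 0.158 (exact permutation p = 0.736, adjusted p = 0.883), with rho = 0.429 (exact permutation p = 0.431, adjusted p = 0.517) and r = 0.942 without IA LPS 4 and control 1. None of the 6 pairs passed the test.

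Over the 7 lungs with the group difference kept in, Lgals3 and Chi3l1 had the most similar log2 CPM of the 6 pairs (Pearson r = 0.885), followed by Lyz2 and Cx3cr1 (r = 0.763). Lyz2 had r = 0.662 with Lgals3 and 0.560 with Chi3l1, and Cx3cr1 had r = 0.328 with Lgals3 and 0.172 with Chi3l1. Many genes were more similar to each member than the other members were, since Chi3l1 ranked 388th among 14316 genes for Lgals3, and Cx3cr1 ranked 464th for Lyz2. All of these points come from the same 7 libraries, and the correlations are descriptions with no p.

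The genes most similar to each member were sought among the 14316 genes whose mean reached 1 CPM, of which 976 had a symbol, and those named here are among the nearest of the 976. The choice used all 7 lungs, so a pattern that a named gene shares with its member follows from the choice. For Lyz2 they included Vtcn1 (r = 0.980) and Map1lc3b2 (r = 0.970). Vtcn1, which encodes an inhibitor of T cell activation, was at 0.823, 1.15 and 1.55 CPM in controls 1 to 3, at 2.58, 2.07 and 1.61 CPM in IA LPS 1 to 3 and at 0.854 CPM in IA LPS 4. The IA LPS lungs stood in the same order as for Lyz2, and IA LPS 4 lay between control 1 and control 2 for both genes. For Cx3cr1 the nearest with a symbol, 4th, 18th and 60th among all 14316 genes, were Mypop (r = 0.982), Elapor2 (r = 0.956) and the basement membrane collagen gene Col4a4 (r = 0.934). Mypop levels were 23.0, 31.0 and 26.5 CPM in controls 1 to 3, 31.2, 38.9 and 36.6 CPM in IA LPS 1 to 3 and 20.2 CPM in IA LPS 4, the lowest of the 7 lungs as for Cx3cr1.

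For Lgals3 the nearest with a symbol, 10th, 18th and 26th among all genes, were Nags (r = 0.979), Ccdc87 (r = 0.976) and the glutathione transferase gene Mgst1 (r = 0.974). Nags, which encodes an enzyme that makes N-acetylglutamate, had levels of 0.823, 1.07 and 1.30 CPM in controls 1 to 3, 2.34, 2.47 and 1.85 CPM in IA LPS 1 to 3 and 1.93 CPM in IA LPS 4, so that every IA LPS lung lay above every control. For Chi3l1 they were, 5th, 8th and 10th among all genes, the mitotic spindle gene Nusap1 (r = 0.985), the adhesion gene Icam1 (r = 0.972) and the matrix gene Dpt (r = 0.970). Nusap1 levels were 116, 106 and 117 CPM in controls 1 to 3, 159, 143 and 142 CPM in IA LPS 1 to 3 and 149 CPM in IA LPS 4, the same order of IA LPS lungs as for Chi3l1.

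Other macrophage genes were examined beside the 4. Of a list of 26 macrophage genes, 11 had an identifier, 10 were tested, and 4 were induced over the 6 lungs and 3 over the 7, with a median log2 fold change of 0.54 over the 6 and 0.51 over the 7. Of the 10 tested, 9 were above every control in IA LPS 4 and 1, Clec7a, was not, where 39.7% of the 15627 genes tested were above every control in that lung. Clec7a, a receptor for fungal glucans, was at 0.906, 2.07 and 2.57 CPM in controls 1 to 3, at 2.34, 3.20 and 2.57 CPM in IA LPS 1 to 3 and at 1.52 CPM in IA LPS 4. Its IA LPS 4 value lay below IA LPS 1 to 3 and within the control range, as for Lyz2, with a log2 difference from IA LPS 1 to 3 of -0.83. Its log2 fold changes of 0.54 over the 6 lungs and 0.38 over the 7 were not called. The complement genes C1qa, C1qb and C1qc were induced in both sets, with log2 fold changes of 0.69, 0.68 and 0.83 over the 6 lungs, and the macrophage transcription factor Spi1 over the 6 (log2 0.59, SE 0.153, edgeR adjusted p = 0.0664). The most abundant of the list by its mean over the 7 lungs, as for the lists below, was C1qc. C1qc was at 43.3, 50.9 and 56.9 CPM in controls 1 to 3, at 93.3, 106 and 70.1 CPM in IA LPS 1 to 3 and at 110.4 CPM in IA LPS 4, the highest of the 7 lungs. The summed level of the 11 genes was 183, 187 and 205 CPM in controls 1 to 3, 305, 320.2 and 244 CPM in IA LPS 1 to 3 and 356 CPM in IA LPS 4. The median log2 difference of the 10 tested genes between IA LPS 4 and IA LPS 1 to 3 was 0.15, against -0.02 for all genes. Of the defining macrophage genes, Cd68, Adgre1 and Spi1 were at 19.3, 3.27 and 14.3 CPM in IA LPS 4, above every control, and Csf1r was not analysed here. Csf3r and S100a4 of the monocyte list differed in IA LPS 4. Csf3r, the receptor for granulocyte colony-stimulating factor, was at 5.93, 7.98 and 7.87 CPM in controls 1 to 3, at 10.3, 9.41 and 8.74 CPM in IA LPS 1 to 3 and at 5.83 CPM in IA LPS 4, below every control as for Cx3cr1. S100a4, a calcium-binding protein gene, was at 6.92, 4.51 and 6.92 CPM in controls 1 to 3, at 7.16, 8.11 and 6.88 CPM in IA LPS 1 to 3 and at 10.7 CPM in IA LPS 4, the highest of the 7 lungs. Against IA LPS 1 to 3, the log2 difference in IA LPS 4 was -0.70 for Csf3r and 0.54 for S100a4. Neither was called between the groups over the 6 lungs (log2 0.38, SE 0.152, adjusted p = 0.189 for Csf3r and log2 0.27, SE 0.187, adjusted p = 0.434 for S100a4, edgeR) or over the 7 (log2 0.24 and 0.43, adjusted p = 0.621 and 0.395, edgeR).

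Symbols came mostly from the study's sheets of genes up or down in placenta after the same treatment. These sheets hold more genes than the study called there, so a gene listed in them need not have passed its thresholds. Genes with an identifier are therefore a selected set. All of the macrophage, monocyte, neutrophil, lymphocyte and erythroid genes with one were listed as up in placenta. Of 12 neutrophil genes 7 had an identifier and were tested, and S100a9, Mmp8 and Trem1 were induced over the 6 lungs and Mmp8 and Trem1 over the 7, with median log2 fold changes of 1.38 and 1.56. The summed neutrophil level was 6.34, 5.73 and 16.5 CPM in controls 1 to 3, 23.3, 20.6 and 15.6 CPM in IA LPS 1 to 3 and 19.2 CPM in IA LPS 4, with S100a9 the most abundant by its mean, although not in every lung. The median log2 difference of the 7 genes between IA LPS 4 and IA LPS 1 to 3 was -0.37, and 5 of the 7 lay above every control in IA LPS 4. Of 12 type 2 cell genes 4 were tested and Sftpd and Ctsh were induced in both sets (median log2 0.60 over the 6 lungs and 0.73 over the 7), and the summed level, with Sftpc the most abundant, was 589.7, 710.2 and 796 CPM in the controls, 932, 1222 and 1011 CPM in IA LPS 1 to 3 and 1499.7 CPM in IA LPS 4. In IA LPS 4, Sftpc alone made up 1222 CPM of that sum. Of 9 type 1 cell genes 3 had an identifier, and Cldn18, the most abundant, and Emp2, the 2 tested, were induced in both sets (median log2 0.60 and 0.65), with sums of 311, 447 and 339.9 CPM in the controls, 616, 526 and 521 CPM in IA LPS 1 to 3 and 639 CPM in IA LPS 4. The part of these cell types in the results for Lyz2, Cx3cr1, Lgals3 and Chi3l1 was not tested.

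Of 11 erythroid genes 7 were tested and none was called by edgeR, DESeq2 or limma-voom or had an unadjusted p under 0.05 over the 6 lungs (median log2 fold change 0.26, and 0.24 over the 7), and their sum, with Hba-a1 the most abundant, was 17024, 14025 and 17222 CPM in controls 1 to 3, 13302, 28893 and 19794 CPM in IA LPS 1 to 3 and 31325 CPM in IA LPS 4. The lymphocyte list had 1 of 10 genes with an identifier, Nkg7, at 0.782, 0.259 and 1.05 CPM in controls 1 to 3, 0.733, 1.13 and 0.606 CPM in IA LPS 1 to 3 and 0.594 CPM in IA LPS 4, which none of these tools called and whose unadjusted p was not under 0.05. Of 14 growth and recruitment signals of macrophages 7 had an identifier and 5 were tested (median log2 fold change 0.33 over the 6 lungs and 0.37 over the 7). Ccl12 was induced over the 6 lungs (log2 1.53, SE 0.418, edgeR adjusted p = 0.0765) and lost its call over the 7 (log2 1.53, SE 0.392, edgeR adjusted p = 0.125), while Ccl2, the most abundant, was not called (log2 -0.19, SE 0.154, edgeR adjusted p = 0.504). The sum of the 7 signals was 16.4, 22.5 and 25.7 CPM in controls 1 to 3, 20.4, 22.4 and 21.8 CPM in IA LPS 1 to 3 and 19.97 CPM in IA LPS 4. The Cx3cl1, Adam10, Adam17 and Ctss genes, which encode the ligand of Cx3cr1 and proteases that release it, were not analysed here. The labelled tissue was checked with Nkx2-1, a transcription factor of lung epithelium, whose level was 341 ± 42.0 CPM in the controls against 360.1 ± 14.7 CPM for IA LPS 1 to 3 (SD, n = 3 each).

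Relatives of the members were measured as well. Of 21 lysozyme, galectin and chitinase family genes, which include Lgals3 and Chi3l1 themselves, 5 had an identifier and 3 were tested (median log2 fold change 0.96 over the 6 lungs and 0.98 over the 7), and the 5 summed to 21.2, 25.7 and 31.3 CPM in controls 1 to 3, 54.0, 49.0 and 42.6 CPM in IA LPS 1 to 3 and 50.5 CPM in IA LPS 4, Lgals3 being the most abundant. The other tested gene, Lgals7, was at 0.412, 0.333 and 0.562 CPM in controls 1 to 3, at 1.40, 1.20 and 0.535 CPM in IA LPS 1 to 3 and at 0.779 CPM in IA LPS 4, and was not called over the 6 lungs (log2 1.25, SE 0.454, edgeR adjusted p = 0.157) or the 7 (log2 1.16, SE 0.423, edgeR adjusted p = 0.248). Lyzl1 had at most 3 counts in any lung. Lyc2 (ENSRNOG00000034139), a close relative of Lyz2 that was added to the lists later, had estimated counts of 21.3, 11.1 and 17.2 for controls 1 to 3, of 44.5, 32.2 and 33.2 for IA LPS 1 to 3 and of 17.1 for IA LPS 4. For Lyc2, too, IA LPS 4 lay among the controls, with a log2 difference from IA LPS 1 to 3 of -1.03 at these low counts. The log2 fold change of Lyc2 of 1.05 over the 6 lungs was not called (SE 0.362, edgeR adjusted p = 0.138), nor was that of 0.86 over the 7 (SE 0.400, edgeR adjusted p = 0.344).

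Reads that match several genes are divided between them by estimation, which can leave fractional counts. The estimated counts of Lgals3 and Chi3l1 were whole in all 7 lungs, from 413 to 1283 for Lgals3 and from 72 to 224 for Chi3l1. Those of Cx3cr1 were fractional, from 72.6 in IA LPS 4 to 209.1 in IA LPS 3, as were those of Lyz2, from 3327 in control 1 to 8360.5 in IA LPS 1. In IA LPS 4 the estimated counts were 3987 for Lyz2 and 17.1 for Lyc2, and how many reads these genes share was not measured. The part of divided reads in the low values of Cx3cr1 and Lyz2 in IA LPS 4 was not tested.

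RefSeq promoter windows, from 250 bases before to 50 bases after the start of transcription on build GRCr8, were given for 3 of the 4 genes, Lyz2, Cx3cr1 and Chi3l1. They were searched on both strands for the letters GAGGAA, the core of sites of the macrophage factor PU.1 that Spi1 encodes, TGACTCA, the AP-1 site, and TTGCNNAA, a C/EBP site. Of 33469 windows of this length, 27.6% held GAGGAA, 4.63% TGACTCA and 10.6% TTGCNNAA. These letters were absent from the windows of Cx3cr1 and Chi3l1. The window of Lyz2, at chr7:54797962-54798261 on the minus strand, held GAGGAA and TTGCNNAA at 1 place each. Both stretches are shown because they are the only matches among the members, 5′ to 3′ on the strand of the gene, with the match in capitals. The stretch with GAGGAA lies at chr7:54798042-54798067, within the RefSeq record of the gene, and the one with TTGCNNAA, at chr7:54798197-54798224, lies outside it and matches on the opposite strand.
Lyz2, GAGGAA: gtcaggaaagGAGGAActtggaggat
Lyz2, TTGCNNAA: agacaaagctTTGAGCAAtttaaaataa
A match describes the letters of the window and not a bound site.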

How the data were processed

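Reads of 3 control and 4 IA LPS lungs were assigned by the authors to transcripts of the rat genome (rno6.0) with kallisto and summed to genes with tximport, and the deposited values are estimated counts without normalization. Software versions and the annotation release were not given in the sources used here. Estimated counts were rounded to whole numbers. Analyses used R 4.3.3 with edgeR 4.0.16 (filterByExpr, TMM, quasi-likelihood test), and limma 3.58.1 and DESeq2 1.42.0 as alternatives. The SE of a log2 fold change was its size divided by the root of edgeR's F, and log2 CPM used a prior count of 2. Symbols for 2070 identifiers came from the supplementary sheets of the study, and 2050 of these are in the table. Named genes were the 4 members, list genes called in either set, the most abundant gene of each list, defining genes of lung and macrophages, and genes with a symbol most similar to each member. The members and lists were chosen with earlier results of these data known. Lyc2 and a few genes named with Lyz2 were chosen later. The test was checked on simulated data. Alternatives were IA LPS 4 included, each lung left out, a replicate block, other scalings, tests, filters and thresholds.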

Additional observations from a re-analysis of the deposited data

Results flagged for a closer look

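Among 24 genes examined in the 4 IA LPS lungs, the 4 members included, 1 had a lung far from the others. S100a9, a neutrophil gene, was at 9.01, 5.38, 5.85 and 5.23 CPM in IA LPS 1 to 4, and the gap between IA LPS 1 and the next lung was 0.836 of the range of the group. Chance alone sets a lung apart to this degree in about 1 in 20 groups. The result depended on the scale. On log2 CPM the same gap was 0.795 for S100a9, which was then not past the limit, and 0.832 for Cx3cr1 in IA LPS 4, which was the only 1 of the 24 past it, against 0.755 for Cx3cr1 on CPM.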

How the results depend on the processing

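The log2 fold changes of Lyz2, Cx3cr1, Lgals3 and Chi3l1 over the 6 lungs were positive in all 60 alternatives computed for them and stayed on their side of the thresholds in 44. With IA LPS replicate 4 included, the values of Lyz2 (0.45) and Cx3cr1 (0.48) were no longer past the thresholds, and 220 genes were induced and 80 suppressed in place of 339 and 176. Without a fold change threshold the counts were 799 and 700. Leaving out each lung of the 6 gave log2 fold changes from 0.48 to 0.80 for Lyz2, 0.62 to 0.88 for Cx3cr1, 0.73 to 1.05 for Lgals3 and 0.79 to 1.10 for Chi3l1, with 150 to 384 genes induced and 67 to 177 suppressed, the lowest counts without control replicate 1 and the next (170 and 84) without IA LPS replicate 2. Leaving out each lung of the 7 gave 0.31 to 0.64 for Lyz2 and 0.36 to 0.72 for Cx3cr1, both past the thresholds only without IA LPS replicate 4 (0.61 and 0.72), 0.74 to 1.06 for Lgals3 and 0.85 to 1.08 for Chi3l1, with 1 to 339 genes induced and 0 to 176 suppressed. Without control 1, 2 or 3 or IA LPS 2, at most 2 genes were induced over the remaining lungs, and neither Lgals3 nor Chi3l1 was called. DESeq2's size factors, total count scaling, DESeq2, limma-voom and both other filters left the calls of all 4 genes over the 6 lungs in place.

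The replicate numbers did not pair the samples, with correlations of 0.17, -0.10 and -0.20 between same-numbered lungs. With a replicate block in the fit, the log2 fold changes were 0.63 for Lyz2 (adjusted p = 0.109, edgeR, no longer past the thresholds, against 0.000328 to 0.390 over its alternatives), 0.73 for Cx3cr1, 0.90 for Lgals3 and 0.95 for Chi3l1, and 267 genes were induced and 150 suppressed. With DESeq2's size factors or total count scaling, the log2 CPM of IA LPS 4 minus the mean of IA LPS 1 to 3 was -0.82 to -0.78 for Lyz2, -1.39 to -1.35 for Cx3cr1, 0.03 to 0.07 for Lgals3 and 0.09 to 0.12 for Chi3l1, and no correlation of deviations changed sign with those size factors or a prior count of 0.5. With the farthest 2 lungs of a pair left out, an alternative chosen after seeing the data, the correlation of Lyz2 and Cx3cr1 turned to -0.992 (-0.660 before deviations were taken again) and the other 5 kept their sign. The cause of the lost calls was not tested. The counts of Cx3cr1 and Chi3l1, from 72 to 224, limit the precision of single lungs.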
